A study of Rattus norvegicus with 48 samples.

Results

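The genes *Gpnmb* (ENSRNOG00000008816), *Spp1* (ENSRNOG00000043451), *Lgals3* (ENSRNOG00000010645) and *Cd68* (ENSRNOG00000037563) were followed in rat motor cortex around implanted silicon electrodes. They are 4 of the 18997 distinct genes counted in the study, taken by their Ensembl IDs, and all 4 had a row in the tables of implanted and of naive animals. They were chosen by their known role in phagocytes and with results of these data in view, among them the higher level of *Gpnmb* beside the electrode than away from it at 1 and 6 weeks; which values chose the other 3 is not recorded. Tissue near the electrode is therefore set against tissue farther away, and against naive tissue at the near position, as a description: fitted differences and counts of calls are given beside the background without a p-value, and nothing is read from those calls.

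Phagocytes of the injured brain, which are resident microglia and macrophages that enter from the blood or the meninges, take up debris and digest it in lysosomes. *Gpnmb* encodes a transmembrane glycoprotein that is abundant in phagocytes with heavily loaded lysosomes, and *Cd68* encodes a glycoprotein of the late endosome and lysosome membrane that is a standard stain for such cells. *Spp1* encodes osteopontin, a secreted phosphoprotein that binds integrins and CD44, and *Lgals3* encodes galectin-3, a lectin that binds beta-galactosides and gathers at damaged lysosomes. None of the 4 is particular to 1 cell type, since osteopontin, for example, is also made by some neurons.

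RNA was sequenced from tissue cut by laser capture out of 20 µm sections of fixed cortex of wild-type male Sprague-Dawley rats aged 12 to 14 weeks. A 16-channel single-shank silicon probe had been inserted 2 mm into the primary motor cortex of the implanted rats, and tissue was taken at depths of about 600 to 1700 µm, either within 100 µm of the shank (near) or about 500 µm from it (far, pooled from 4 smaller areas). There were 3 rats at 24 h (numbers 25, 29 and 30), 5 at 1 week (9, 10, 20, 22 and 23), 4 at 6 weeks (2, 11, 17 and 19) and 3 naive rats without an implant (n2, n3 and n5), in which tissue was taken at the 2 matching positions. A rat contributed 1 or both hemispheres, which gave 6 libraries per position and time and 48 in all, and the rat was the replicate, with the counts of its hemispheres summed. Different rats stood for different times, so time and animal cannot be told apart except by the spread between rats. Hemispheres were unequal over time as well, since rats 9, 10 and 22 at 1 week gave the right one only and rat 20 at 1 week and rats 2 and 11 at 6 weeks the left one only.

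Library totals ran from 3363892 to 12844185 counts, with 3062 to 16023 genes detected, and 4 libraries had fewer than 6000 genes detected (near 24 h rat 29 right, near 1 week rat 20 left, near 1 week rat 23 right and far 1 week rat 23 left). Levels are given as CPM, the counts of a gene per 1000000 counts of a rat's summed libraries at 1 position. They are not divided by gene length, so they are compared between samples and not between genes. The tissue was a mixture, so more cells of a type and more RNA per cell cannot be told apart, and markers of brain cell types were not analysed here because the files give IDs without names.

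The sequences directly upstream of these genes show which short motifs the members share, and 3 of the 4 had an entry in the RefSeq promoter table of assembly GRCr8 (the counts themselves were made on Rnor_6.0). The 250 bases before each start are printed 5′ to 3′ along the strand of the gene. Capitals mark matches, on either strand, to TGANTCA (bound by AP-1 factors), TCATGTG (an E-box form bound by MITF and its relatives) or GAGGAA (the core bound by PU.1, a factor of the myeloid lineage). These motifs were picked after the sequences had been seen.
Gpnmb, chr4:79340878-79341127, plus strand: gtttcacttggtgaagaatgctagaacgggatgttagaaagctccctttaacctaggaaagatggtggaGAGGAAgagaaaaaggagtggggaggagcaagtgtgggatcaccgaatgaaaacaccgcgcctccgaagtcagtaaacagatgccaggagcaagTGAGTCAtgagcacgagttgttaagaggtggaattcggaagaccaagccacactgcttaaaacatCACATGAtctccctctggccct
Spp1, chr14:5619805-5620054, minus strand: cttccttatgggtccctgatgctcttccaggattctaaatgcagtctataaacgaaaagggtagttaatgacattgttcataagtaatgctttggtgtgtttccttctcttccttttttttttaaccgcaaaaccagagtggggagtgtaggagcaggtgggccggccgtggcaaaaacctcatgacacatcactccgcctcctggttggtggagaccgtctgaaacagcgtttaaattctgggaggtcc
Cd68, chr10:54882442-54882691, minus strand: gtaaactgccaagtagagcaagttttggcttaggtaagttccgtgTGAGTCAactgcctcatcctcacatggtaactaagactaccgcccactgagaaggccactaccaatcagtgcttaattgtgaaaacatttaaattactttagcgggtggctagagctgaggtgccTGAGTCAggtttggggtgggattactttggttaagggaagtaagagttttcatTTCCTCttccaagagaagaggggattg

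The *Gpnmb* window held 1 match to each of the 3 motifs, with first bases 181 (GAGGAA), 87 (TGANTCA) and 22 (TCATGTG, on the opposite strand) before the start. In the *Cd68* window TGANTCA matched at 205 and 80 bases before the start and GAGGAA, on the opposite strand, at 27, and none of the matches overlapped another. The *Spp1* window held none of these letters. Over 33469 promoter windows of the same length, TGANTCA occurred in 6.34%, TCATGTG in 3.07% and GAGGAA in 23.3%. A match is a description of the letters, and binding was not measured.

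*Gpnmb* was higher near the shank than far from it in every implanted rat. At 24 h its near level was 1181 CPM in rat 25, 20.5 in rat 29 and 64.8 in rat 30, against far levels of 53.8, 18.7 and 11.6 CPM in the same order. At 1 week the near level was 177 CPM in rats 9 and 10, 90.7 in rat 20, 135 in rat 22 and 95.9 in rat 23, against far levels of 7.72, 0, 6.88, 16.4 and 30.4 CPM in rats 9, 10, 20, 22 and 23. At 6 weeks the near level was 31.6, 40.8, 165 and 68.1 CPM in rats 2, 11, 17 and 19, whereas the far level was 0, 0, 2.25 and 0.0944 CPM. The near level was the higher one in 12 of 12 rats, and 19 of 14399 genes tested (0.132%) were higher near the shank in every rat.

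Near and far values of *Gpnmb* overlapped at 24 h and did not overlap at 1 week or at 6 weeks. All near values lay above all far values for 3.31%, 0.278% and 1.18% of the genes at the 3 times, and these counts were part of what chose the gene. At 24 h the far value of rat 25 (53.8 CPM) lay above the near value of rat 29 (20.5 CPM), and in rat 29 itself near and far differed by a factor of 1.09. Ratios in the other rats with far counts above 2 ran from 3.16 to 22.96 at 24 h and 1 week, and rat 17 had a ratio of 73.5 at 6 weeks. The far level at 6 weeks rested on 40 counts in 4 rats, of which rat 17 gave 95.0%.

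The near mean of *Gpnmb* was 422 ± 657 CPM (SD, n = 3) at 24 h, 135 ± 42.0 (n = 5) at 1 week and 76.4 ± 61.1 (n = 4) at 6 weeks. Rat 25 supplied 91.1% of the *Gpnmb* counts near the shank at 24 h, and without it the mean was 42.6 ± 31.3 CPM (n = 2), below that of either later time. Leaving out rat 17 gave 46.8 ± 19.0 CPM (n = 3) at 6 weeks. The far means were 28.1 ± 22.6, 12.3 ± 11.7 and 0.585 ± 1.11 CPM, and without rat 25 the far mean at 24 h was 15.2 ± 5.04. Leaving out rat 23 gave a far mean of 7.74 ± 6.71 CPM at 1 week, and leaving out rat 17 gave 0.0315 ± 0.0545 at 6 weeks.

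**Figure D1:**
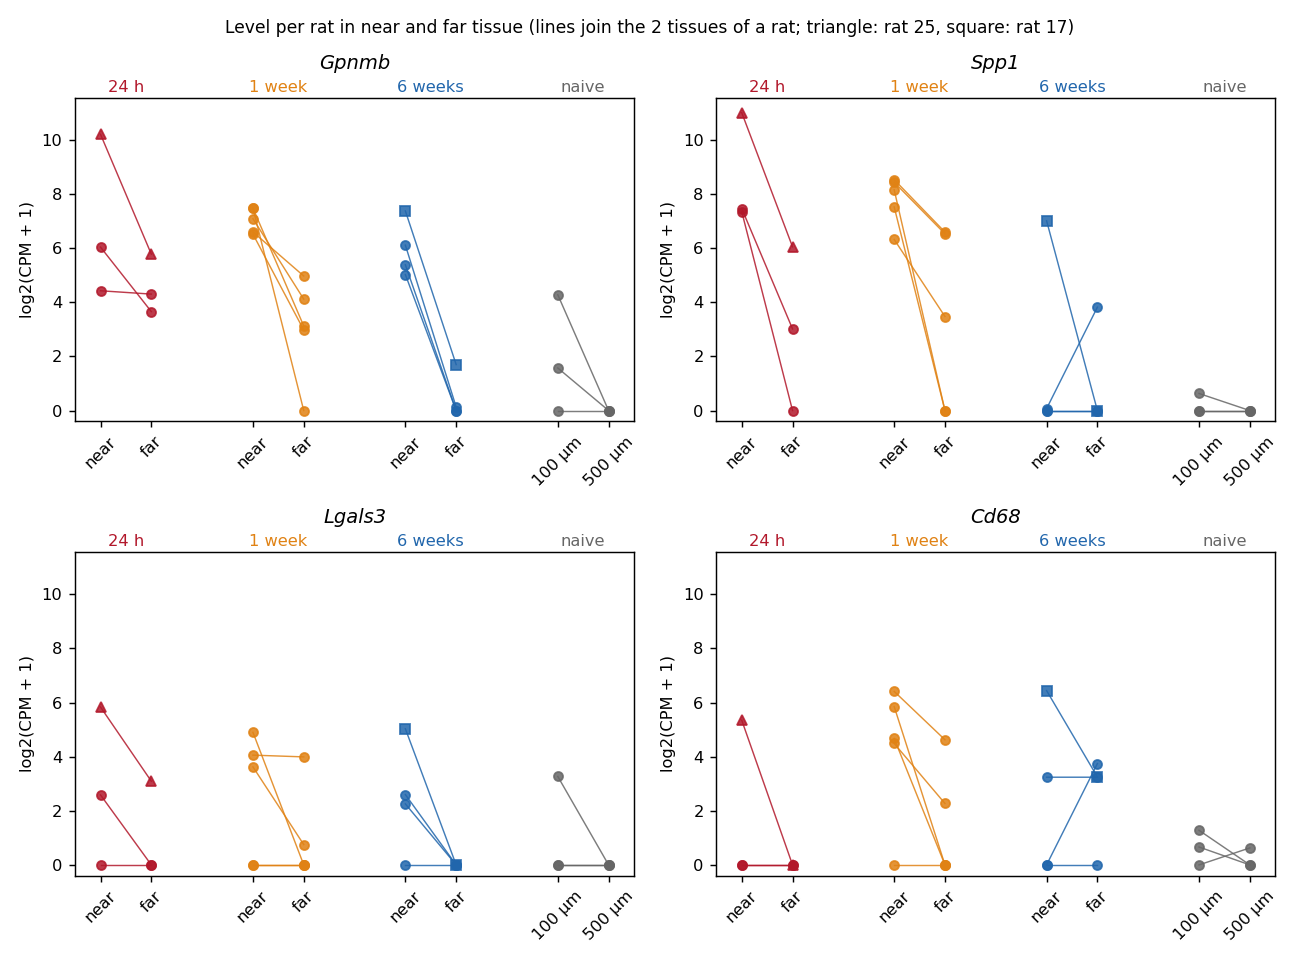
Level of each gene per rat as log2(CPM + 1), 1 panel per gene; each point is the sum of a rat's libraries at 1 position, lines join the positions of a rat, the triangle is rat 25 and the square rat 17. Every *Gpnmb* line from near to far tissue slopes down, whereas for *Spp1* at 6 weeks rat 17 alone has a near level of 128 CPM and the other 3 rats are at or near 0.

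In the fit with the rat as a block (edgeR, over 14399 genes), the *Gpnmb* log2 difference near minus far was 2.52 ± 0.89 (SE) at 24 h, 4.04 ± 0.74 at 1 week and 8.70 ± 0.99 at 6 weeks. The value at 24 h was 1.61 when rat 25 was left out, 3.45 when rat 29 was, and 1.78 when the 4 libraries with under 6000 genes were dropped, and the value at 1 week was 3.24 without rat 10 and 4.73 without rat 23. The last value rests on far counts close to 0 and was 10.27 without rat 17. The median of all genes was -0.08, -0.66 and -0.05 at the 3 times. DESeq2 size factors moved the median at 1 week by 0.19, and relative to it *Gpnmb* stood at 4.71 with the main scaling and at 4.73 with those factors. Of the 4 members, all of which passed the low-count filter, 0 at 24 h, 1 at 1 week and 1 at 6 weeks (*Gpnmb* both times) had an adjusted p below 0.05 in edgeR's quasi-likelihood test, where 0.132%, 0.396% and 0.0764% of all genes did. Neither call was made with DESeq2 size factors, with libraries not summed or without the block. Since this contrast was used to choose the members, nothing is read from these counts.

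*Spp1*, the gene of osteopontin, was high beside the shank in every rat at 24 h and 1 week and in a single rat at 6 weeks. At 24 h the near level was 2055 CPM in rat 25, 162 in rat 29 and 176 in rat 30, and the far level was 65.2, 0 and 7.09. At 1 week the near level was 285, 183, 79.1, 345 and 369 CPM in rats 9, 10, 20, 22 and 23, and the far level was 0, 0, 10.1, 91.4 and 95.6. At 6 weeks rat 17 had 128 CPM near the shank, rat 19 had 0.0503 (1 count) and rats 2 and 11 had 0, while far tissue had 13.1 CPM in rat 19 and 0 in the other 3.

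The near level of *Spp1* was therefore higher than the far level in 3 of 3 rats, 5 of 5 rats and 1 of 4 rats at the 3 times. At 24 h and 1 week, 9.13% and 1.21% of genes were higher near the shank in every rat. *Spp1* did not meet that condition at 6 weeks, where 3.46% of genes did. At 6 weeks rat 19 had the higher level in far tissue, and rats 2 and 11 had no count at either position. The near and far ranges did not overlap at 24 h, where all near values lay above all far values for 3.31% of genes. They overlapped at 1 week (79.1 in the lowest near rat against 95.6 in the highest far rat) and at 6 weeks. The near mean was 797 ± 1089 CPM (n = 3), 252 ± 121 (n = 5) and 32.0 ± 64.1 (n = 4). Without rat 25 the mean at 24 h was 169 ± 9.63 CPM (n = 2), below the mean at 1 week, and without rat 17 the mean at 6 weeks was 0.0168 ± 0.029 CPM (n = 3). The far means were 24.1 ± 35.8, 39.4 ± 49.6 and 3.28 ± 6.56 CPM, and these were 3.55 ± 5.02 at 24 h without rat 25 and 0 at 6 weeks without rat 19. At 1 week the far mean was 25.4 ± 44.2 CPM without rat 23.

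*Lgals3*, the gene of galectin-3, was low and patchy. At 24 h its near level was 56.0 CPM in rat 25, 0 in rat 29 and 5.01 in rat 30, and a far level above 0 was found in rat 25 alone (7.52 CPM). At 1 week the near level was 28.8, 0, 0, 15.6 and 11.3 CPM in rats 9, 10, 20, 22 and 23, and the far level was 14.9 CPM in rat 22, 0.683 in rat 23 and 0 in the other 3. At 6 weeks the near level was 0, 5.06, 31.7 and 3.77 CPM in rats 2, 11, 17 and 19. No *Lgals3* count was found in the 6 far libraries at 6 weeks.

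The near level of *Lgals3* was the higher one in 8 rats, both positions were at 0 in 4 and no rat had the higher level in far tissue. Pooled over the 4 rats at 6 weeks, near tissue had 12.1 CPM, at least 217-fold higher than the 0.0557 CPM that 3 counts over the far group would give, a limit that covers counting error only and was 55.3-fold without rat 17. Rat 17 gave 82.5% of the near counts at 6 weeks, and without it the near mean there was 2.94 ± 2.63 CPM (n = 3) in place of 10.1 ± 14.5 (n = 4). At 24 h the near mean was 20.3 ± 31.0 CPM (n = 3) with rat 25 and 2.50 ± 3.54 (n = 2) without it. The near mean at 1 week was 11.2 ± 12.1 CPM (n = 5), and 6.74 ± 7.97 (n = 4) without rat 9.

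*Cd68*, the lysosomal glycoprotein gene, was higher near the shank in some rats and not in others. At 24 h only rat 25 had counts, with 39.7 CPM near the shank, and no far library had any. At 1 week the near level was 24.5, 56.7, 0, 84.1 and 21.4 CPM in rats 9, 10, 20, 22 and 23, against far levels of 0, 0, 0, 23.6 and 3.82. At 6 weeks the near level was 0, 0, 85.8 and 8.45 CPM in rats 2, 11, 17 and 19, and the far level was 12.4, 0, 8.51 and 8.45 in the same order.

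*Cd68* was higher near the shank in 6 rats, higher in far tissue in 2 (rat 2, and rat 19 by a trace) and at 0 at both positions in 4. Its near mean was highest at 1 week, 37.4 ± 33.1 CPM (n = 5), beside 13.2 ± 22.9 (n = 3) at 24 h and 23.6 ± 41.7 (n = 4) at 6 weeks. The mean at 6 weeks was 2.82 ± 4.88 CPM (n = 3) without rat 17, which is below the far mean of 7.34 ± 5.23 CPM (n = 4) at that time. At 24 h the pooled near level was at least 152-fold higher than 3 counts over the far group would give, and all of its 507 counts came from rat 25. In the order of group means, the ranges of every pair of neighbouring groups overlapped for each of the 4 genes.

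In naive cortex most values were at or close to 0, with single rats above that at the 100 µm position. At the 100 µm position *Gpnmb* was at 18.4 CPM in rat n2, 1.97 in n3 and 0 in n5, and *Spp1* was at 0.548 CPM (10 counts) in n3 and 0 in the other 2. *Lgals3* was at 8.63 CPM in n5 alone, and *Cd68* was at 0.582, 1.43 and 0 CPM in n2, n3 and n5. At the 500 µm position *Gpnmb*, *Spp1* and *Lgals3* had no count in any of the 6 libraries, and *Cd68* had 6 counts in n5. None of the 4 genes passed the low-count filter of the comparison between the naive positions, so their position difference was not tested there, and that comparison called 0 of 11839 genes (600 at an unadjusted p below 0.05, and 1357 with DESeq2).

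All near values of *Gpnmb* lay above all naive values at 100 µm at each of the 3 times, as was so for 3.6%, 0.795% and 1.71% of the genes. The closest values were 20.5 CPM near the shank in rat 29 and 18.4 CPM in naive rat n2. *Spp1* met the same condition at 24 h and 1 week and not at 6 weeks. The quasi-likelihood test of edgeR for near against naive tissue called 0 of 4 members at each time, and 0.0578%, 0.123% and 0.0434% of genes. An unadjusted p below 0.05 in that test was found for 2, 3 and 2 members. Beside them stood 823 of 13834 genes at 24 h and 1224 at 1 week. At 6 weeks the number of genes was at least 508 and below 580. These are the ranks by p of *Gpnmb*, which was below 0.05 in that test, and of *Cd68*, which was not. DESeq2 called 2, 2 and 0 members, beside 400, 308 and 183 genes. The naive libraries were deposited in a table of their own and carry library numbers of another series, so that batch and implant cannot be told apart wherever implanted tissue is set against naive tissue.

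The genes were also counted library by library. *Gpnmb* had counts in 18 of 18 near libraries, *Spp1* in 14, *Lgals3* in 10 and *Cd68* in 9, against 10, 7, 3 and 5 of 18 far libraries. Of the 192 values of the 4 genes over all libraries, 107 (55.7%) were 0, while 77 were 10 counts or more and only 8 lay between 1 and 9. A gene was thus mostly either absent from a library or present with a median of 242 counts. In the implanted libraries 47.2% of the members' values were 0, beside 38.1% over all genes tested.

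All 4 genes were detected together in 2 of 6 near libraries at 24 h, 3 of 6 at 1 week and 1 of 6 at 6 weeks, and in 2 of 6 far libraries at 1 week. No far library at 24 h or 6 weeks and no naive library held all 4. The 4 libraries with few detected genes differed among themselves. The right near library of rat 23 held all 4 members, and the left far library of rat 23 held none. The left near library of rat 20 and the right near library of rat 29 held *Gpnmb* and *Spp1* but neither *Lgals3* nor *Cd68*. The part of library complexity in these zeros was not tested.

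**Figure D2:**
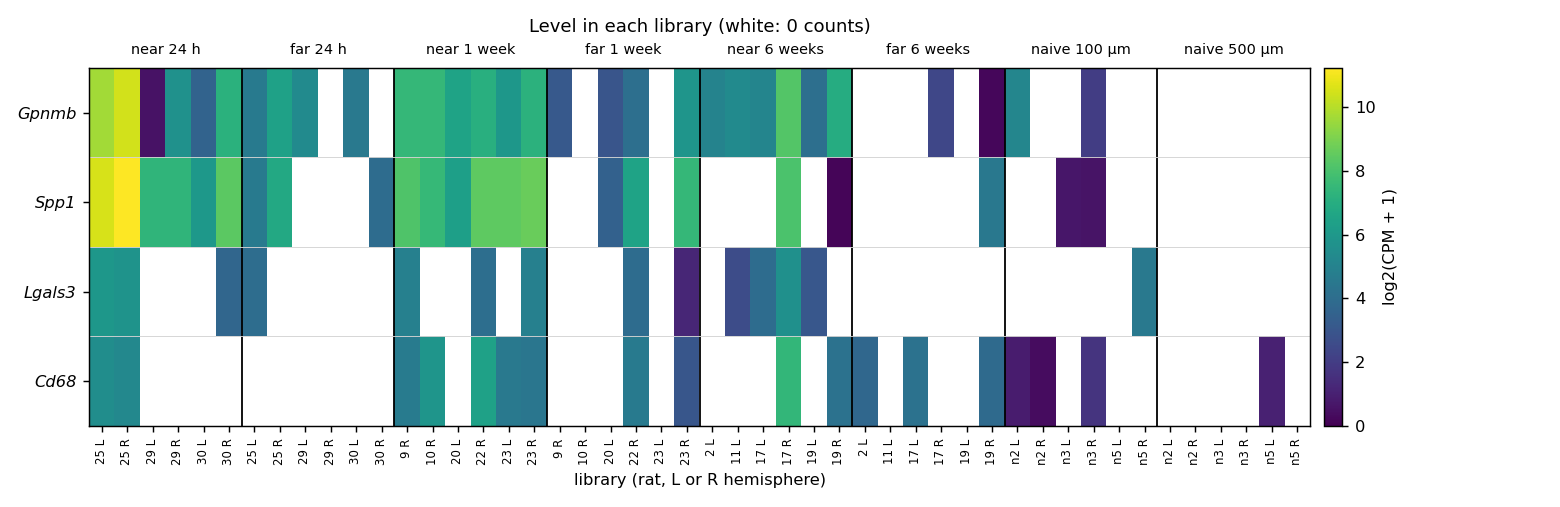
Level of the 4 genes in each of the 48 libraries, as colour on a log2(CPM + 1) scale, ordered by group, rat and hemisphere (L left, R right); white cells have 0 counts. The near libraries hold 51 of the 85 values above 0, and 5 of the 6 naive libraries at 500 µm are empty for all 4 genes.

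The levels beside the shank at different times, measured in different rats, were compared in a fit of the near tissue alone, over 12799 genes. *Gpnmb* differed by -1.36 ± 0.95 (log2, ± SE) between 1 week and 24 h, by -2.12 ± 1.02 between 6 weeks and 24 h and by -0.76 ± 0.91 between 6 weeks and 1 week. For *Spp1* the differences were -1.40 ± 2.01, -4.42 ± 2.35 and -3.02 ± 2.10. Neither gene passed the threshold in any of the 3 comparisons, each with an adjusted p of 1 in edgeR's quasi-likelihood test. Of the 4 members 0 were called in each, where edgeR called 0.0469%, 0.0234% and 0.00781% of genes. At an unadjusted p below 0.05 the count was also 0 in each, beside 726, 538 and 643 of the 12799 genes. With DESeq2 it was 0 as well, beside 255, 262 and 160 genes. Nothing is read from 0 of 4 beside shares this small.

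These differences depended on single rats. Without rat 25 the *Gpnmb* difference turned to 1.34 between 1 week and 24 h and to 0.61 between 6 weeks and 24 h, and that of *Spp1* between 1 week and 24 h turned to 0.16. Rats 29 and 30 had the lower levels at 24 h. Without rat 29 or without rat 30 the *Gpnmb* difference between 6 weeks and 24 h was -2.62 or -2.60, and it was called in both fits. Near values of *Gpnmb* at 6 weeks were part of the contrast known when the gene was chosen, so nothing is read from these calls. Leaving out rat 17, the only rat with more than 1 *Spp1* count near the shank at 6 weeks, left 1 count in the 6-week group. The *Spp1* difference from 24 h was then -14.03 and was called. With that group almost empty, and with the values that chose *Spp1* not recorded, nothing is read from this call either. Every *Spp1* value near the shank at 6 weeks lay below every value at 24 h, as was so for 2.87% of genes, and the values at 6 weeks overlapped those at 1 week.

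The balance of *Spp1* to *Gpnmb* within the same tissue was set side by side at the 3 times, as the share of *Spp1* in the counts of both. It was 63.5%, 88.8% and 73.1% in rats 25, 29 and 30 at 24 h and 61.6%, 50.9%, 46.6%, 71.9% and 79.4% in rats 9, 10, 20, 22 and 23 at 1 week. At 6 weeks it was 0% in rats 2 and 11, 0.0737% in rat 19 and 43.7% in rat 17. The shares at 6 weeks lay below those of all 8 rats at the earlier times, with the closest pair 43.7% and 46.6%, and the shares at 24 h and 1 week overlapped. By hemisphere, *Spp1* in left near libraries was at 1493, 162 and 61.8 CPM at 24 h (rats 25, 29 and 30), 79.1 and 349 at 1 week (rats 20 and 23) and 0 in all 4 rats at 6 weeks, and its share was 64.9% to 99.7%, 46.6% and 85.1%, and 0%. In right near libraries the share was 63.0% to 76.3% at 24 h, 50.9% to 72.8% at 1 week and 46.4% and 0.0841% at 6 weeks (rats 17 and 19). Within either hemisphere the shares at 6 weeks thus lay below those of the earlier times. Rat 25, whose levels of both genes exceeded those of the other rats at 24 h, had the lowest share of the 3. This is a description with no test, and a share here reflects gene length as well as abundance, so only its change between samples is read. How many other genes, set against *Gpnmb*, separate the times in this way was not counted. Near *Gpnmb* at 6 weeks, which enters the share, was part of the contrast known when the gene was chosen.

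**Figure D3:**
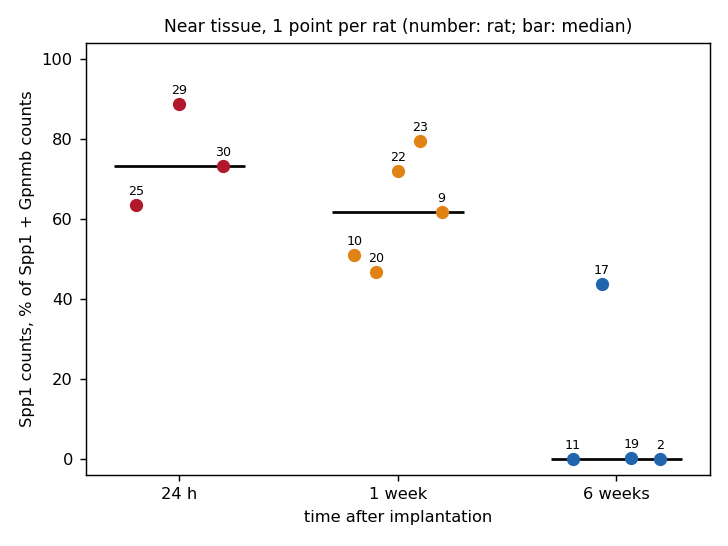
Share of *Spp1* in the summed counts of *Spp1* and *Gpnmb* in near tissue, in percent, 1 point per rat (numbered) with the median of each time as a bar. The medians are 73.1% at 24 h, 61.6% at 1 week and 0.0369% at 6 weeks, where rat 17 alone stands at 43.7%.

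Near the shank at 6 weeks *Gpnmb* was detected in all 4 rats, *Lgals3* in rats 11, 17 and 19 and *Cd68*, like *Spp1*, in rats 17 and 19. The share of *Lgals3* in the counts of *Lgals3* and *Gpnmb* was 4.53%, 0% and 7.17% in rats 25, 29 and 30, and 0%, 11.0%, 16.1% and 5.24% in rats 2, 11, 17 and 19. These ranges overlapped, as did those of *Cd68*.

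The far tissue of the 3 times was compared over 12995 genes, with 3 of the 4 members in the fit, since *Lgals3* did not pass the filter. *Gpnmb* differed by -1.12 ± 1.78 (log2, ± SE) between 1 week and 24 h, by -5.43 ± 2.16 between 6 weeks and 24 h and by -4.30 ± 1.98 between 6 weeks and 1 week. The last 2 had unadjusted p-values of 0.0159 and 0.0354 and adjusted p-values of 1 and 0.900 in edgeR's quasi-likelihood test, so neither passed the threshold. Far values of *Gpnmb* at 6 weeks were part of the contrast known when the gene was chosen, so nothing is read from the unadjusted values. All far values of *Gpnmb* at 6 weeks (0 to 2.25 CPM) lay below all values at 24 h (11.6 to 53.8 CPM), as was so for 2.14% of genes. The comparisons called 0 of the 12995 genes at any pair of times (546, 533 and 661 at an unadjusted p below 0.05, and 196, 219 and 129 with DESeq2). Of the 3 members, 1, 2 and 1 had an unadjusted p below 0.05, and DESeq2 called *Cd68* in both comparisons with the 24 h group, in which *Cd68* had no count.

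Far tissue held counts of genes that were at 0 in naive tissue at 500 µm, and so did naive tissue at 100 µm. Taken against 3 counts over the naive group (0.0809 CPM), pooled *Gpnmb* was at least 347-fold higher at 24 h, 184-fold at 1 week and 9.18-fold at 6 weeks, and pooled *Spp1* at least 299-fold, 568.1-fold and 63.8-fold. *Lgals3* was at least 31.1-fold and 28.4-fold higher at 24 h and 1 week. The same limits for naive tissue at 100 µm were 83.1-fold for *Gpnmb* and 27.3-fold for *Lgals3*, the latter all from rat n5. These limits cover counting error only, and single rats carried much of each. Without the rat of most counts, *Gpnmb* was at least 187-fold higher at 24 h (without rat 25) and 89.6-fold at 1 week (without rat 23), and had 2 counts left at 6 weeks (without rat 17). *Spp1* was at least 44.2-fold higher at 24 h without rat 25 and 266-fold at 1 week without rat 23, and had no count left at 6 weeks without rat 19. For *Lgals3* no count was left at 24 h without rat 25, and the limit at 1 week was 3.23-fold without rat 22. For naive tissue at 100 µm the *Gpnmb* limit was 15.2-fold without rat n2. Over rats, *Gpnmb* was above 0 in 3 of 3, 4 of 5 and 2 of 4 rats and *Spp1* in 2 of 3, 3 of 5 and 1 of 4.

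In the test of far against naive tissue, 3 members passed the filter and edgeR's quasi-likelihood test called 0 of them at each time, where it called 0.00748%, 0.127% and 0.0598% of genes. The adjusted p-values were 0.642, 0.363 and 0.608 for *Gpnmb*, 0.642, 0.508 and 0.635 for *Spp1* and 0.840, 0.807 and 0.833 for *Cd68*. Far values of *Gpnmb* at 1 and 6 weeks were part of the contrast known when the gene was chosen. Which values chose the other members is not recorded, so nothing is read from the p-values and calls of this paragraph. An unadjusted p below 0.05 was found for 2, 2 and 1 of the 3 members, beside 958, 1261 and 1046 of 13369 genes. DESeq2 called 3, 2 and 1 members, beside 680, 777 and 659 genes. Its calls at 24 h include *Cd68*, which ran the other way (log2 -4.21 in edgeR). There *Cd68* had no count in far tissue and 6 counts in naive tissue. The other calls were made against a naive group at or near 0. The condition that all far values lie above all naive values held for *Gpnmb* at 24 h, as for 5.09% of genes, and not at the later times.

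The near minus far difference of *Gpnmb* was larger at 6 weeks than at 24 h by 6.19 ± 1.26 (log2, ± SE), larger at 6 weeks than at 1 week by 4.66 ± 1.16 and larger at 1 week than at 24 h by 1.53 ± 1.12. Only the first passed an adjusted p of 0.05, as 1 of the 4 members and 1 of 3 genes in all (0.0208%); 0 of 4 members did between 6 weeks and 1 week, where 0.0278% of genes did, or between 1 week and 24 h, where 0% did. The 6-week difference was among the values known when the gene was chosen, so these are given as description. Between 24 h and 6 weeks the near mean went from 422 to 76.4 CPM and the far mean from 28.1 to 0.585. The call between 6 weeks and 24 h was not made when any of rats 19, 25, 29 or 30 was left out, with values between 5.27 and 7.33, and it was 7.76 without rat 17. Without rat 10 or without rat 17 the difference between 6 weeks and 1 week was called, at 5.43 and 6.23.

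The 2 hemispheres of an animal also differed. Among the 6 implanted rats with a near library from each hemisphere, *Gpnmb* on the left and right was 806 and 1414 CPM in rat 25, 0.472 and 50.4 in rat 29, 10.9 and 142 in rat 30, 61.3 and 150 in rat 23, 33.1 and 301 in rat 17 and 16.2 and 124 in rat 19. The right side was the higher one in 6 of 6 rats, by a factor between 1.75 and 107 with a median of 8.39, and 43 of 14399 genes (0.299%) shared that direction in every one of these rats. *Spp1* was higher on the right in 6 of 6 as well, although 162 against 162 CPM in rat 29 and 1 count against 0 in rat 19 are no difference to speak of. *Lgals3* was higher on the right in 3 and on the left in 2, and *Cd68* in 2 and 2.

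In far tissue *Gpnmb* was higher on the right in 4 rats and on the left in 2, and *Spp1* was higher on the right in 4 and at 0 on both sides in 2. Neither gene was thus higher on the right in every rat, a condition that 1.74% of genes met. The high 6-week values of rat 17 came mostly from its right hemisphere, with 260.4 CPM of *Spp1* and 174 CPM of *Cd68* there and no count of either on the left. The pattern between hemispheres was noticed in these values and no test was made of it. The right near library of rat 29 is one of the 4 with few detected genes, and so is that of rat 23.

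**Figure D4:**
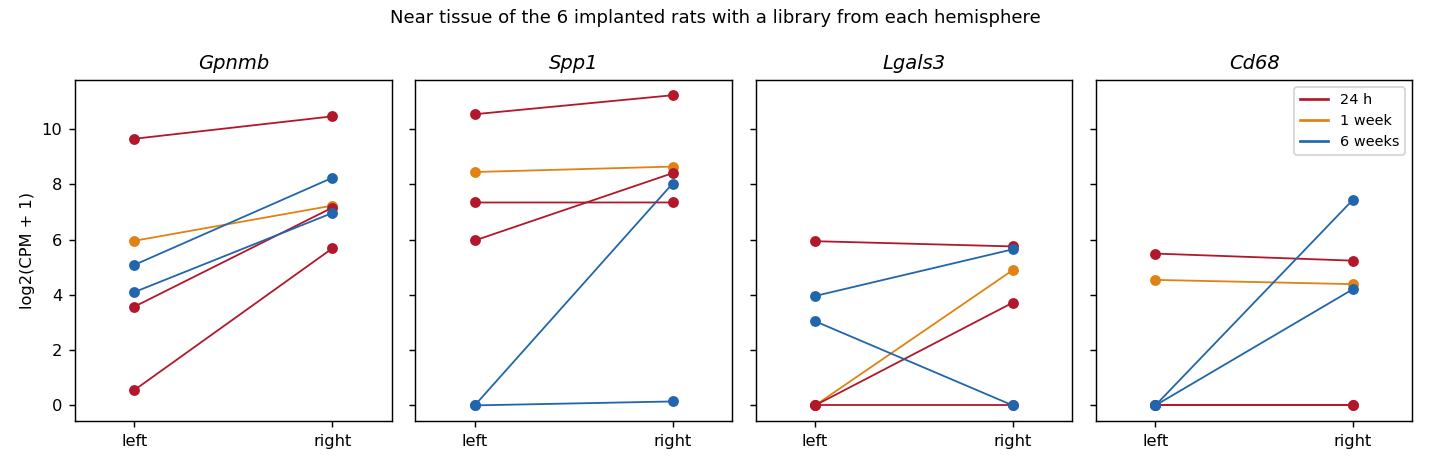
Level in near tissue of the left and right hemisphere as log2(CPM + 1), 1 panel per gene and 1 line per rat, coloured by time. All 6 *Gpnmb* lines slope up to the right, whereas the *Lgals3* and *Cd68* lines run in both directions.

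Across the 24 near and far sums of the implanted rats, log2 CPM values of the members correlated with each other at Pearson's r of 0.640 (*Gpnmb* and *Spp1*), 0.640 (*Gpnmb* and *Lgals3*), 0.572 (*Spp1* and *Lgals3*), 0.548 (*Lgals3* and *Cd68*), 0.463 (*Spp1* and *Cd68*) and 0.322 (*Gpnmb* and *Cd68*). *Cd68* was thus the member least like *Gpnmb*. Among the 5935 genes whose log2 CPM averaged 3 or more, the pattern of *Gpnmb* was most like that of ENSRNOG00000010319 (r = 0.874) and the pattern of *Spp1* most like that of ENSRNOG00000010331 (r = 0.778). These are descriptions over points that share rats, libraries and many zeros.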

How the data were processed

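RNA was extracted from laser-captured, fixed tissue of 12 implanted and 3 naive rats, and libraries were made with a kit that keeps strand, per the labels' protocols. The build Rnor_6.0 and, among the tools, STAR 2.6.1b, RSEM 1.3.1 and DESeq2 are named in the submitters' processing notes, without roles. The deposited values are whole-number counts per gene, used as they stand; RSEM gives estimated counts, and no source used here states whether the authors rounded them. Gene names came from the rule that chose the members, since 0 of 18997 IDs matched the reference table, so the lists of pathway and marker genes were not analysed here.

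Counts were summed per rat and position and tested with edgeR 4.0.16 in R 4.3.3 (filterByExpr, TMM, robust quasi-likelihood test, Benjamini-Hochberg adjustment over all genes tested, calls below an adjusted p of 0.05). The rat was a block in comparisons of positions, because the labels give near and far libraries of the same animal. Within this approach each ± after a log2 value is an approximate standard error, the value divided by the square root of F. CPM used all counts of the library. Correlations used log2 CPM with a prior count of 2. Alternatives used DESeq2 1.42.0 (size factors or Wald test), no low-count filter, no block, libraries not summed, naive positions summed, fewer samples in the fit, and omission of the 4 libraries with under 6000 genes or of each rat in turn. The omission of rats from group means and from pooled limits, and the split of near tissue by hemisphere, were chosen after seeing the data. The fits were also run on simulated counts, and the outcome is not given here. Those counts had a common dispersion for all genes and no difference between rats. The members were often at 0 or carried by single rats, so that run is no check of their calls.

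The members and lists were chosen with earlier results of these data known. Near against far, its change between times, and near against naive are therefore given for the members without p-values. The comparisons of *Gpnmb* between times within near or within far tissue, and of far against naive tissue, reuse part of those values. Nothing is read from a p-value there. The genes named are the 4 members and, for likeness, the gene most correlated with *Gpnmb* and with *Spp1*. Labels do not say whether hemispheres were operated on separately, and p-values measure the spread between rats.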

Additional observations from a re-analysis of the deposited data

Results flagged for a closer look

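In 7 of the 15 combinations of gene and group that had 4 or more rats and any value above 0, the highest rat lay far from the others of its group. The rule is set to flag about 1 in 20 groups by chance, and that rate was not checked for groups made mostly of zeros. Near the shank at 6 weeks this was rat 17 for *Spp1* (128 CPM), *Cd68* (85.8 CPM) and *Lgals3* (31.7 CPM). In far tissue it was rat 22 at 1 week for *Cd68* (23.6 CPM) and *Lgals3* (14.9 CPM), rat 17 at 6 weeks for *Gpnmb* (2.25 CPM) and rat 19 at 6 weeks for *Spp1* (13.1 CPM). Most of the other rats in these groups were at or near 0.

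The near minus far difference of *Gpnmb* was larger at 6 weeks than at 24 h by 6.19 on the log2 scale, a difference that had an adjusted p below 0.05 in the reported fit (edgeR) and in 7 of 14 alternatives. It was not called with DESeq2 size factors, with libraries not summed, with no block, or without rat 19, 25, 29 or 30. It belongs to values known when the gene was chosen, so it is a description and nothing is read from the call.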

How the results depend on the processing

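Recomputed under the alternatives, 214 counts of members called stayed within a factor of 1.5 of the reported count and 35 did not. These 35 follow, and the cause was not tested. Apart from DESeq2's Wald test, the numbers of all genes called under the same setting are not given here. A change in the members cannot be told from a change over all genes, so nothing is read from these counts. For near minus far at 24 h (reported 0), 1 member (*Spp1*) was called without the low-count filter, and likewise when the libraries of few detected genes were left out. At 1 week (reported 1), 2 were called under either of these settings, and 0 with DESeq2 size factors within edgeR, with libraries not summed per rat and with no replicate block. At 6 weeks (reported 1), 0 were called with DESeq2 size factors, with libraries not summed, with no replicate block and with only the rats of that time. The change between 6 weeks and 24 h (reported 1) gave 0 with DESeq2 size factors, with libraries not summed and with no replicate block, and the change between 6 weeks and 1 week (reported 0) gave 1 without the libraries of few detected genes. DESeq2's Wald test, where 0 was reported, called 1 member for far tissue at 1 week against 24 h, 1 for far tissue at 6 weeks against 24 h, 2 for near tissue at 24 h and 2 at 1 week against naive tissue, and 3, 2 and 1 for far tissue at 24 h, 1 week and 6 weeks against naive tissue. The numbers of all genes that DESeq2 called in these comparisons are given above. At 24 h its call of *Cd68* was for a gene without a count in far tissue.

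With each rat left out in turn, the number of members called ran from 1 to 2 for near minus far at 1 week (2 without rats 10, 20 or 22), and from 0 to 1 for the changes of 6 weeks against 24 h and against 1 week. It also ran from 0 to 1 for near tissue at 6 weeks against 24 h and for near tissue at 24 h against naive tissue (1 without rat n5, *Gpnmb*). The *Gpnmb* log2 difference in near tissue ran from -1.87 to 1.34 between 1 week and 24 h and from -2.78 to 0.61 between 6 weeks and 24 h, and that of *Spp1* from -1.85 to 0.16 between 1 week and 24 h, turning sign only without rat 25.

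The pairing of near and far tissue comes from the animals. With no replicate block the *Gpnmb* change between 1 week and 24 h was -0.20 in place of 1.53, and its near minus far difference at 6 weeks was 6.97 in place of 8.70. The comparison of naive positions gave no value for any member under the main filter, and no call of one under any alternative.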
